A study of Mus musculus with 6 samples.

Results

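Arterial, venous and lymphatic endothelial genes were followed in lung ECs of AngII-infused WT and KO mice. The group held 10 genes, chosen by name but with earlier results of these data known. They were Gja4, Gja5, Efnb2, Sox17 and Bmx for arteries, Nr2f2, Ephb4 and Ackr1 for veins, and Prox1 and Mmrn1 for lymphatic vessels. All 10 were found among the 47729 genes counted, and all 10 passed the filter on low counts, as did 14625 genes in all. RNA was sequenced from 3 WT and 3 KO libraries. The WT mice carried the intact leene region. The KO mice lacked the mouse region homologous to the human lncRNA gene LEENE in every cell type. Mice of both groups were male, 14 weeks old, on a C57BL6 background and a normal chow diet, and received AngII at 1000 ng/kg/min from an osmotic pump for 2 weeks, so no group without AngII was part of the comparison. The labels describe CD31-enriched cells pooled from 3 mice per group, whereas the methods describe sorting on CD144. Whether a library holds 1 mouse or part of a pool was not settled, and p-values measure the spread between these libraries, which may be technical.

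ECs of arteries, veins and lymphatic vessels differ in the genes they transcribe, although all share the pan-endothelial program. Arterial identity is tied to SOXF factors such as SOX17 and to Notch signaling, which favor the ligand ephrin-B2 (Efnb2) and the connexins of arterial gap junctions (Gja4 and Gja5). Venous identity rests on the nuclear receptor COUP-TFII (Nr2f2), which restrains Notch signaling, and venous ECs carry EphB4, the receptor of ephrin-B2. Lymphatic ECs arise under PROX1. In the lung most ECs are capillary, so genes confined to the larger vessels are carried by a minority of the cells. Whether each member was confined to them cannot be read from bulk RNA. In bulk RNA, fewer cells of a type and less RNA per cell cannot be told apart.

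Total counts were between 24464324 and 35184063 per library. Cdh5 and Pecam1, which encode CD144 and CD31, were at 44.6 to 189 and 50.2 to 93.5 FPKM (counts scaled for exonic length and library size) in the 6 libraries. All 12 pan-endothelial genes listed were detected in every library. Their geometric mean was 25.9, 32.3 and 52.9 FPKM in WT replicates 1, 2 and 3 and 52.7, 33.5 and 43.9 FPKM in KO replicates 1, 2 and 3, so the libraries differed in endothelial transcripts within each genotype. Mitochondrial genes took 37.4% to 54.5% of the counts and were highest in WT replicate 3 and KO replicate 1 (46.2%), the libraries with the highest pan-endothelial level, and their part in the results was not tested. Transcripts of other cells were carried along in unequal amounts. The summed level of 5 alveolar type II genes ran from 4934 to 46390 CPM (counts scaled for library size only) in WT and from 36566 to 44951 CPM in KO.

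The members covered a wide range of levels. By mean FPKM over the 6 libraries, Efnb2 (19.2) was followed by Gja4 (16.6), Ephb4 (13.3), Sox17 (6.16), Nr2f2 (5.28), Bmx (5.13), Gja5 (4.33), Mmrn1 (1.20), Ackr1 (0.649) and Prox1 (0.248). Mean levels of Efnb2 and Prox1 differed by 77.5 times. Among all genes tested, Efnb2 stood at the 90.7th percentile of mean FPKM and Prox1 at the 8.72nd. Only at 2 steps of this order did the ranges of neighbors not overlap over the libraries, between Ephb4 and Sox17 and between Gja5 and Mmrn1. Sox17, Nr2f2, Bmx and Gja5 thus could not be ordered beyond their spread, and Sox17 was above Nr2f2 in 3 of 6 libraries. Ackr1 varied most, with a highest level 7.09 times its lowest, and Sox17 least, at 1.39 times.

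**Figure D1:**
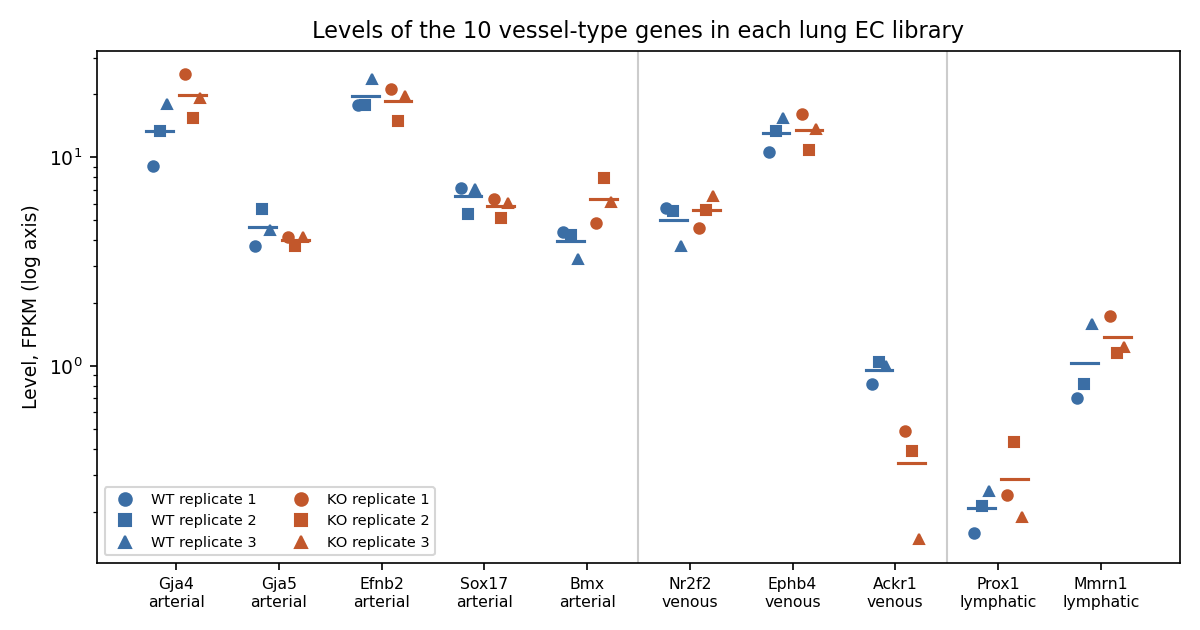
Level of each of the 10 genes in FPKM on a log axis, by library, with WT in blue and KO in orange and a bar at the mean of each group (n = 3). Efnb2, Gja4 and Ephb4 sit above 9 FPKM in every library, Prox1 stays below 0.5 FPKM, and the groups separate for Bmx and Ackr1.

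The comparison between KO and WT asked whether deletion of leene went with other levels of vessel-type transcripts. None of the 10 members passed an adjusted p of 0.05 (quasi-likelihood F test of edgeR, adjusted for all genes tested after Benjamini and Hochberg), where 0.109% of all genes did, 0.0752% with a lower level in KO. The log2 fold change was below 0 for 4 of 10 members, among them Efnb2, whose sign was not stable, beside 45.9% of all genes. At an unadjusted p under 0.05 there were 2 of 10, Bmx and Ackr1, against 10.3% of all genes. Bmx was higher in KO, as were 5.62% of all genes at that p, and Ackr1 lower, as were 4.68%. The same 2 genes were the ones for which the 3 KO libraries and the 3 WT libraries did not overlap, which held for 17.8% of all genes. DESeq2 also called 0 of 10, where it called 1.21% of the genes it tested. The median log2 fold change was -0.09 over the 5 arterial, 0.05 over the 3 venous and 0.45 over the 2 lymphatic members, beside 0.03 over all genes tested.

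**Figure D2:**
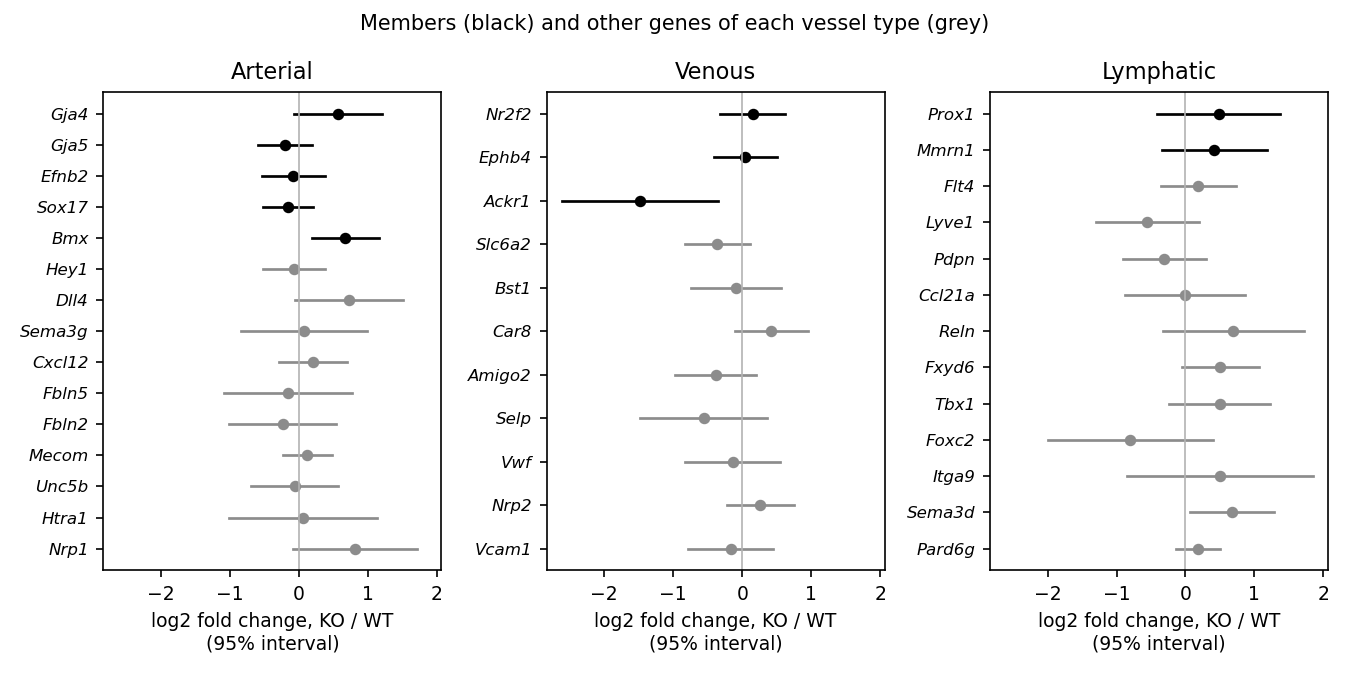
Log2 fold change of KO over WT with its 95% interval from edgeR's quasi-likelihood fit (n = 3 libraries per group), for members in black and other listed genes of the same vessel type in grey. Among the members, the intervals of Bmx and Ackr1 leave out 0, and those of the other 8 hold it.

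The promoters of 4 members, picked by their values, are given, although none of the 4 passed the adjusted threshold. Bmx and Ackr1 had groups that did not overlap, as had 17.8% of all genes tested. For the connexin genes Gja4 and Gja5, the ratio to each other did not overlap between the groups. In that log2 ratio of Gja5 to Gja4, WT replicate 3 (-2.0) and KO replicate 2 (-2.03) were nearly equal. Each sequence runs 5′ to 3′ on the strand of its gene, from 250 bases before the RefSeq start site to 50 bases after it, in GRCm38. Capitals mark matches on either strand to TGGGAA (the core letters of Notch-associated RBPJ motifs) and ACAAAG (letters found in SOX motifs). The strands and places are Bmx on the minus strand at chrX:164258144-164258443, Ackr1 on the minus strand at chr1:173333454-173333753, Gja4 on the minus strand at chr4:127313990-127314289, and Gja5 on the plus strand at chr3:97032152-97032451.
Bmx: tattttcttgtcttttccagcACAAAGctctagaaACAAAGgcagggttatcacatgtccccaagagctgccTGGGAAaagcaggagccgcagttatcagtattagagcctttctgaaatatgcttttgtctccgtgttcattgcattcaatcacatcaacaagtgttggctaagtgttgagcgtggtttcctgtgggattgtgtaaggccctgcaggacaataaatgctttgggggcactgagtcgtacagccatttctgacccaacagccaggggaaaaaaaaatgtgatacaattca
Ackr1: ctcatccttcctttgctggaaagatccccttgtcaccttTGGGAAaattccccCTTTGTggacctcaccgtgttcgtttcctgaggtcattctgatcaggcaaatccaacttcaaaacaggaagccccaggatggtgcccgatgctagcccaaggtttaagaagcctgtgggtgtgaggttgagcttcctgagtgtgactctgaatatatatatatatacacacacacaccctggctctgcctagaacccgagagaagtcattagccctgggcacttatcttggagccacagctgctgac
Gja4: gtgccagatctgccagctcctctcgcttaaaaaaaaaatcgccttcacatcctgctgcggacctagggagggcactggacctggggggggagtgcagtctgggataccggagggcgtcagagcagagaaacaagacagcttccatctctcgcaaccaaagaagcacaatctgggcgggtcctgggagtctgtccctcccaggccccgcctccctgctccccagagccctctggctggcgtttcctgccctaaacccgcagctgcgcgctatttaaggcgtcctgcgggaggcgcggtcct
Gja5: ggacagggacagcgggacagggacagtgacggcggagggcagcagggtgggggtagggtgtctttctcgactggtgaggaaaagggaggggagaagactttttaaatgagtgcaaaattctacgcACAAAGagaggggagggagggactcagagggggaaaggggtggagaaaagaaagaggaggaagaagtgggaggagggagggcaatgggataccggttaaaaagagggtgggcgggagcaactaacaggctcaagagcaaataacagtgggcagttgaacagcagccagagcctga

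The RefSeq tables held 10 such windows for 9 members, Prox1 having 2 of them, and Sox17 was not among them. TGGGAA lay in the windows of Ackr1, Bmx, Mmrn1 and Prox1, or 4 of 10, beside 25.6% of all 32851 windows. ACAAAG lay in those of Ackr1, Bmx, Gja5 and Prox1, beside 18.7% of all windows. In Bmx it occurred at -229 and -215 relative to the start site, with TGGGAA at -178. In Ackr1 TGGGAA was at -211 and ACAAAG at -197. Also searched were ACAATG, found only in the window of Mmrn1 among the members (12.6% of all windows), and CCGGAA, the core of many ETS sites, found in none of them (14.9% of all windows). No motif shared bases with another in these windows, and a match is a run of letters, not a site shown to be bound. The GC content was 44.7% for Bmx and 62.0% for Gja4, beside a median of 52.7% over all windows.

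Of the arterial members, Bmx (chrX:164192842-164258193), a TEC family tyrosine kinase of arterial and endocardial ECs, had the largest fitted difference. It was at 4.36, 4.24 and 3.26 FPKM in WT replicates 1, 2 and 3 and at 4.87, 7.98 and 6.10 FPKM in KO replicates 1, 2 and 3. The lowest KO level exceeded the highest WT level, as for 8.59% of all genes tested, although KO replicate 1 exceeded WT replicate 1 only narrowly. The log2 fold change was 0.67 (standard error 0.21, 95% interval 0.18 to 1.17, adjusted p = 0.374, edgeR). Leaving out single libraries gave 0.44 (without KO replicate 2) to 0.81, and no such fit passed the threshold. With libraries scaled by total counts the log2 fold change was 0.48, with an unadjusted p of 0.119 (edgeR). Scaled to the 12 pan-endothelial genes it was 0.38, with an unadjusted p of 0.389 (edgeR). The TMM scaling factor was 1.37 in WT replicate 1 and 0.87 to 1.04 in the other libraries, and its part in the separation was not tested.

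Gja4 and Gja5 encode the connexins that couple arterial ECs through gap junctions. Gja4 (chr4:127311421-127314039) was at 9.05, 13.3 and 17.9 FPKM in WT and at 25.05, 15.4 and 19.1 FPKM in KO. The groups overlapped through WT replicate 3 and KO replicate 2, and the log2 fold change was 0.57 (95% interval -0.06 to 1.20, adjusted p = 0.513, edgeR). It was 0.34 without WT replicate 1, 0.35 without KO replicate 1 and 0.81 without WT replicate 3. Gja5 (chr3:96904693-97077416) was at 3.76, 5.67 and 4.47 FPKM in WT and at 4.14, 3.76 and 4.15 FPKM in KO. The KO libraries lay within the range of the WT libraries, and the log2 fold change was -0.20 (95% interval -0.60 to 0.19). It was -0.34 without WT replicate 1 and -0.069 without WT replicate 2. Within a library Gja4 was always above Gja5 per length of transcript.

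The highest level was 1.60 times the lowest for Efnb2 and 1.39 times for Sox17, beside 1.51 times for Gja5 and 1.52 times for Ephb4. Efnb2 (chr8:8617434-8661242), the ligand through which arterial ECs meet EphB4-bearing venous ECs, was at 17.7, 17.8 and 23.7 FPKM in WT and at 21.3, 14.9 and 19.6 FPKM in KO. Its log2 fold change of -0.09 had a 95% interval of -0.54 to 0.37, and its sign turned without WT replicate 3 (0.05) or KO replicate 2 (0.02). Sox17 (chr1:4490931-4497354), the transcription factor that acts upstream of arterial genes, was at 7.16, 5.36 and 7.03 FPKM in WT and at 6.28, 5.13 and 6.03 FPKM in KO. The groups overlapped and the log2 fold change was -0.16 (95% interval -0.53 to 0.20). It was -0.32 without WT replicate 2, -0.25 without KO replicate 1, -0.094 without WT replicate 1 and -0.11 without KO replicate 2. A change of 1 on the log2 scale in either direction lay outside both intervals, as it did for Gja5, Nr2f2 and Ephb4. These intervals rest on TMM scaling. With libraries scaled to the 12 pan-endothelial genes, the log2 fold change was -0.38 for Efnb2 and -0.49 for Sox17.

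The other arterial genes listed were Hey1, Dll4, Sema3g, Cxcl12, Fbln5, Fbln2, Mecom, Unc5b, Htra1 and Nrp1. Of these 10, all tested, 0 passed the adjusted threshold in edgeR and 0 had an unadjusted p under 0.05. The median log2 fold change was 0.07. The highest was that of Nrp1 (0.81), a coreceptor of VEGF and semaphorins, which was at 19.8, 59.9 and 57.1 FPKM in WT and 87.8, 73.7 and 78.7 FPKM in KO. The Nrp1 levels of the groups did not overlap, and WT replicate 1 was the lowest by far. The lowest was Fbln2 at -0.24. Dll4, the Notch ligand of arterial and sprouting ECs, was at 5.69, 6.79 and 11.9 FPKM in WT and 17.9, 8.82 and 13.6 FPKM in KO. Its groups overlapped and its log2 fold change was 0.73 (adjusted p = 0.503, edgeR).

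Of the venous members, Ackr1 (chr1:173331886-173333750), the atypical chemokine receptor that marks ECs of venules, had the lowest log2 fold change of all 10. It had 47, 50 and 30 reads in WT replicates 1, 2 and 3 and 16, 15 and 6 reads in KO replicates 1, 2 and 3. Per length and scaled library this was 0.819, 1.04 and 1.0 FPKM in WT and 0.489, 0.393 and 0.147 FPKM in KO. Every KO library was below every WT library, as for 9.20% of all genes tested. The log2 fold change was -1.48 (standard error 0.49, 95% interval -2.62 to -0.35, adjusted p = 0.388, edgeR), a fitted level 2.79 times lower in KO. The counting error alone was large, since the 6 reads of KO replicate 3 have an exact 95% Poisson interval of 2.20 to 13.1 reads. Leaving out single libraries gave log2 fold changes of -1.83 to -1.11.

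Ackr1 shared 361 of its 1405 exonic bases, 25.7%, with Cadm3 on the same strand, and reads in shared bases were not counted, so its FPKM is understated in every library. Cadm3 itself had 21 to 83 reads per library. No other member shared exonic bases with a gene of its own strand. Ackr1 is also a surface protein of erythroid cells. Of the 6 erythroid genes listed, 5 were tested, with 0 at an unadjusted p under 0.05 and a median log2 fold change of 0.10, and their summed level was 61.3 to 100.4 CPM in WT and 65.7 to 102.1 CPM in KO.

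Nr2f2 and Ephb4 were abundant in comparison. Nr2f2 (chr7:70351944-70366735) was at 5.71, 5.54 and 3.75 FPKM in WT and at 4.60, 5.59 and 6.49 FPKM in KO. Its log2 fold change was 0.15 (95% interval -0.32 to 0.62). Ephb4 (chr5:137350109-137378669) was at 10.6, 13.3 and 15.4 FPKM in WT and at 16.2, 10.8 and 13.6 FPKM in KO, and its log2 fold change was 0.05 (95% interval -0.41 to 0.50). The groups overlapped for both, and both signs turned with total-count scaling and with scaling to the pan-endothelial genes. The sign of Nr2f2 also turned without WT replicate 3, and that of Ephb4 without WT replicate 1 or KO replicate 1. Nr2f2 is transcribed by lung fibroblasts as well. The 6 fibroblast genes listed had a summed level of 229.9 to 502 CPM in WT and 355 to 498 CPM in KO, and their part in the level of Nr2f2 was not tested.

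The other venous genes listed were Slc6a2, Bst1, Car8, Amigo2, Selp, Vwf, Nrp2 and Vcam1. Of the 8, 0 passed the adjusted threshold and 0 had an unadjusted p under 0.05 in edgeR's test, and the median log2 fold change was -0.15. Slc6a2, a noradrenaline transporter of pulmonary vein ECs, was at 5.20, 8.34 and 8.71 FPKM in WT and at 5.60, 5.50 and 6.23 FPKM in KO, with overlapping groups and a log2 fold change of -0.36. The lowest was Selp (-0.56), which encodes P-selectin and is also a platelet gene, and the highest was Car8 (0.42). Transcripts of the cardiac muscle that sheathes pulmonary veins, 8 genes, had a summed level of 15.7, 72.9 and 53.3 CPM in WT and 29.2, 24.2 and 21.1 CPM in KO. Of these 8 genes, 1, Actc1, had an unadjusted p under 0.05 in edgeR's test, where 4.68% of all genes were lower in KO. All 8 had a log2 fold change below 0 (median -0.90), beside 45.9% of all genes, and 0 passed the adjusted threshold. Their summed levels overlapped between the groups, and their part in the venous values was not tested.

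The lymphatic members were the least abundant apart from Ackr1. Prox1 (chr1:190118035-190170714), the transcription factor that sets lymphatic identity, had 54, 61 and 45 reads in WT and 47, 99 and 46 reads in KO, or 0.158, 0.213 and 0.251 FPKM and 0.241, 0.434 and 0.189 FPKM. KO replicate 2 stood above the other 5 libraries, which overlapped. The log2 fold change of 0.48 (95% interval -0.41 to 1.37, adjusted p = 0.653, edgeR) was 0.03 without KO replicate 2 and 0.31 without WT replicate 1. Mmrn1 (chr6:60924976-60989378), which encodes multimerin 1, a carrier of factor V, was at 0.705, 0.821 and 1.58 FPKM in WT and at 1.74, 1.15 and 1.23 FPKM in KO. WT replicate 3 lay within the KO range, and the log2 fold change was 0.42 (95% interval -0.34 to 1.18, adjusted p = 0.650, edgeR). It was 0.83 without WT replicate 3, 0.19 without KO replicate 1, 0.20 without WT replicate 1 and 0.25 without WT replicate 2.

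Platelets and megakaryocytes also carry Mmrn1. The 7 platelet genes listed had a summed level of 53.4, 36.5 and 36.8 CPM in WT replicates 1, 2 and 3 and of 98.4, 82.3 and 47.5 CPM in KO replicates 1, 2 and 3. All 7 had a log2 fold change above 0 (median 0.75) and 4 had an unadjusted p under 0.05, while 0 passed the adjusted threshold in edgeR. KO replicate 1 was the highest library for both Mmrn1 and the platelet sum. In WT the order was not shared, since WT replicate 1 had the highest platelet sum and the lowest Mmrn1 (0.705 FPKM). The part of platelets in the Mmrn1 values was not tested.

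The other lymphatic genes listed were Flt4, Lyve1, Pdpn, Ccl21a, Reln, Nts, Fxyd6, Tbx1, Foxc2, Itga9, Sema3d and Pard6g. Of the 12, 11 were tested and Nts did not pass the filter. Among the 11, 0 passed the adjusted threshold in edgeR, 1 had an unadjusted p under 0.05 (Sema3d, with a log2 fold change of 0.68) and the median was 0.19. At that p, 5.62% of all genes were higher in KO. Levels within the list were far apart. Lyve1, the hyaluronan receptor of lymphatic vessels that some macrophages and lung blood vessel ECs also carry, was at 60.0, 94.9 and 137 FPKM in WT and at 73.9, 48.2 and 76.6 FPKM in KO, while Prox1 never exceeded 0.434 FPKM. Flt4, which encodes the VEGF-C receptor, was at 1.98 to 3.52 FPKM over the 6 libraries. The lowest log2 fold change was that of Foxc2 (-0.80) and the highest that of Reln (0.70), both with overlapping groups.

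Because the libraries differed in endothelial transcripts, each member was also set against the geometric mean of the 12 pan-endothelial genes in its own library. The reference itself was not level between the groups: 11 of the 12 genes had a log2 fold change above 0 (median 0.14), and Kdr, the VEGF receptor of blood vessel ECs, was at 0.87 with groups that did not overlap (adjusted p = 0.313, edgeR). On this scale the median log2 fold change of all genes moved from 0.03 to -0.27. For 3 of 10 members, Gja4, Efnb2 and Ackr1, the groups did not overlap, beside 5.80% of all genes (1.68% higher and 4.12% lower in KO). Division by endothelial genes can narrow the genes that follow them and widen the rest, and the share over all genes was 17.8% before it. The 5.80% is thus not a like measure for endothelial genes, and nothing was read from the difference. The other vessel-type genes given below are closer in kind. Gja4 was at -1.52, -1.28 and -1.56 (log2 of its FPKM over that of the pan-endothelial genes) in WT and at -1.07, -1.12 and -1.20 in KO. The pooled SD of Gja4 within the groups was 0.12 on this scale and 0.43 without it, so its libraries lay closer together and the KO values were all above the WT values. Efnb2 was at -0.55, -0.86 and -1.157 in WT and at -1.31, -1.17 and -1.161 in KO, with all KO values below all WT values but WT replicate 3 and KO replicate 3 nearly equal. With Kdr left out of the reference, which was tried after the values were seen, the groups of Efnb2 overlapped, while those of Gja4 and Ackr1 still did not. Ackr1 was at -4.98, -4.95 and -5.73 in WT and at -6.75, -6.41 and -8.22 in KO.

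Of the 29 other vessel-type genes tested, the groups did not overlap on this scale for 7, beside 3 of the 10 members and 5.80% of all genes. Such separation was thus not particular to the members. The 7 were Dll4, Reln and Sema3d, higher in KO, and Unc5b, Slc6a2, Amigo2 and Lyve1, lower in KO. Without Kdr in the reference the groups overlapped for Unc5b, Slc6a2 and Amigo2. Dll4 was at -2.19, -2.25 and -2.15 in WT and at -1.56, -1.92 and -1.69 in KO, with every KO value above the WT values, as for Gja4. Lyve1 was at 1.21, 1.55 and 1.37 in WT and at 0.49, 0.53 and 0.80 in KO, with every KO value below the WT values.

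The separation of Bmx was not kept on that scale. Bmx was at -2.57, -2.93 and -4.02 in WT and at -3.44, -2.07 and -2.85 in KO, and its pooled SD was 0.72 on this scale and 0.30 without it. The libraries with the most pan-endothelial transcripts, WT replicate 3 and KO replicate 1, had the lowest Bmx in their groups. Nr2f2, Gja5 and Sox17 spread in the same way, with pooled SDs of 0.70 against 0.30, 0.43 against 0.22 and 0.40 against 0.20. Mmrn1 instead lay closer together, with 0.14 against 0.49. No member passed the adjusted threshold when the fit was scaled to these genes, and 0 of 10 had an adjusted p below 0.864 there (edgeR).

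**Figure D3:**
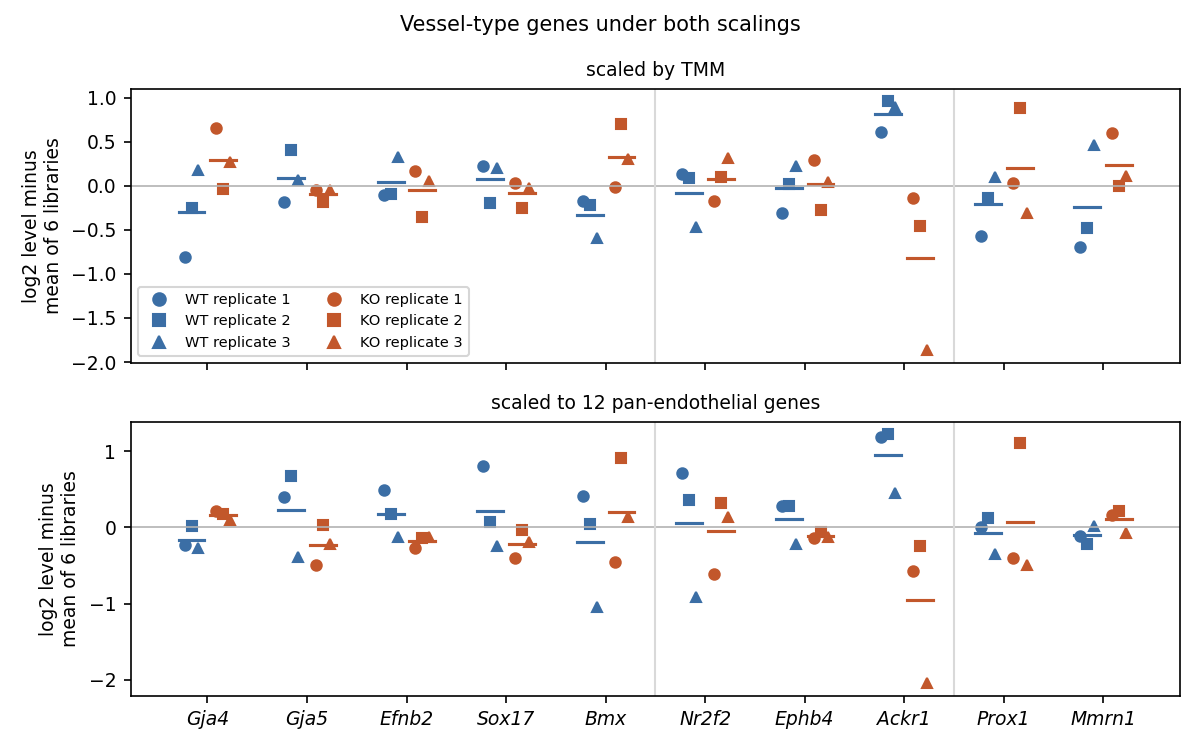
Log2 level of each member minus its mean over the 6 libraries, with libraries scaled by TMM (upper panel) and to the geometric mean of 12 pan-endothelial genes (lower panel); bars are group means (n = 3). Gja4 draws together and separates in the lower panel, Bmx separates only in the upper panel, and Ackr1 is lower in the KO libraries in both.

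Ratios of members within a library do not depend on library scaling, but they can depend on its cell makeup. The log2 ratio of Gja5 to Gja4, per length, was -1.27, -1.23 and -2.0 in WT and -2.60, -2.03 and -2.20 in KO. Every KO library was below every WT library, by a mean of 0.78 on the log2 scale, with an exact two-sided permutation p of 0.1, the smallest that 3 libraries against 3 allow, and 0.4 after adjustment over the 4 ratios. The ratio of the ligand Efnb2 to its receptor Ephb4 was 0.60 ± 0.16 (SD, n = 3) in WT and 0.46 ± 0.07 in KO, with an exact permutation p of 0.3. Mmrn1 to Prox1 (2.25 ± 0.36 and 2.32 ± 0.80) and the venous factor Nr2f2 to the arterial factor Sox17 (-0.39 ± 0.48 and -0.07 ± 0.33) had exact permutation p-values of 0.8 and 0.5.

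**Figure D4:**
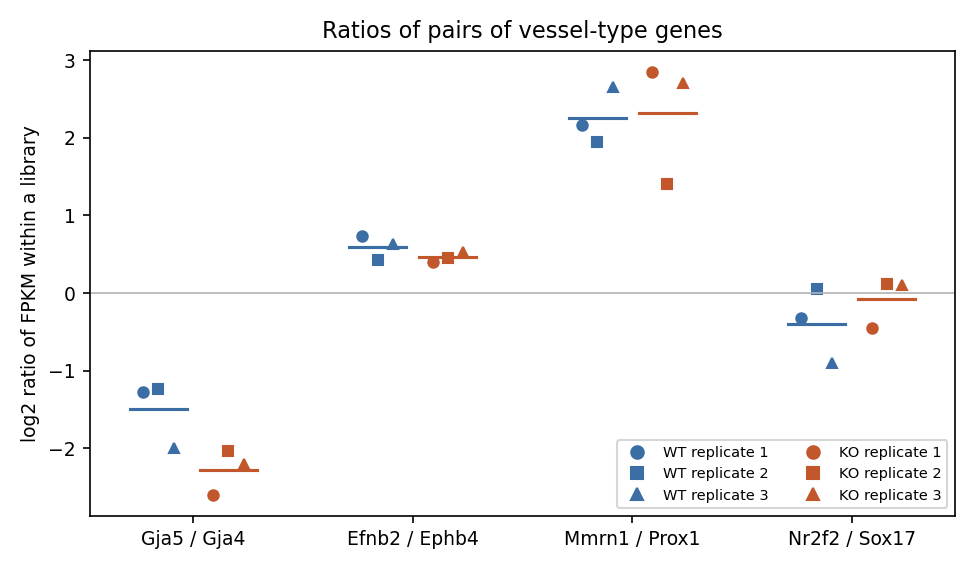
Log2 ratio of the FPKM of 2 members within each library, with WT in blue and KO in orange and bars at the group means (n = 3). The Gja5 to Gja4 ratio lies between -2.0 and -1.23 in WT and between -2.60 and -2.03 in KO, and the groups overlap for the other 3 ratios.

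Averaged over members and centered per gene, log2 CPM of the arterial class was -0.21, -0.07 and 0.03 in WT and 0.16, -0.03 and 0.11 in KO. The venous class was at 0.12, 0.33 and 0.19 in WT and at -0.01, -0.21 and -0.42 in KO. Ackr1 carried this separation: without it, in a profile of Nr2f2 and Ephb4 added after the values were seen, the class was at -0.09, 0.05 and -0.12 in WT and at 0.06, -0.09 and 0.18 in KO. The lymphatic class was at -0.62, -0.30 and 0.28 in WT and at 0.31, 0.43 and -0.10 in KO. The pan-endothelial genes were at -0.58, -0.26 and 0.45 in WT and at 0.44, -0.22 and 0.18 in KO. The arterial, lymphatic and pan-endothelial profiles were all lowest in WT replicate 1. The genes most like each class profile, by Pearson's r over the 6 libraries among 11608 other genes above a mean log2 CPM of 1, were Leng8, Agtrap and Abi3bp for the arterial class (r = 0.997, 0.994 and 0.993), Cxcl5, Gtf2b and Btbd1 for the venous class (0.993, 0.989 and 0.985), and Odf3b, H1fx and Krt15 for the lymphatic class (0.995, 0.995 and 0.993). The venous genes were matched to the profile that held Ackr1. With 6 libraries and so many genes such values are a description only, and the points share libraries, depth and cell makeup. No listed vessel-type gene was among these 9.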

How the data were processed

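Polyadenylated RNA of lung cells, CD31-enriched per the labels and sorted on CD144 per the methods, was sequenced in 3 WT and 3 KO libraries. The authors deposited raw counts, whole numbers of reads per gene. Per the file headers, uniquely aligned reads were counted over exons on the reverse strand with featureCounts 2.0.0 and the Ensembl release 84 annotation of GRCm38, and reads on shared exons were dropped. The submitters' processing notes name bcl2fastq 2.18, STAR 2.5.4b and mm10. The files also give each gene's exonic length, used here for FPKM, and GENCODE names matched 47224 of 47729 genes.

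Counts were filtered with filterByExpr, scaled by TMM and fitted with genotype as the only term in edgeR 4.0.16 (glmQLFit, glmQLFTest, R 4.3.3). The Benjamini-Hochberg adjustment covered 14625 genes. Standard errors are the log2 fold change over the root of F. Log2 CPM used a prior count of 2. Alternatives were DESeq2 1.42.0, limma-voom (limma 3.58.1), the likelihood ratio test, legacy=FALSE, other scalings and filters, robust dispersions, the replicate block and each library left out. The members, the lists and the naming rule (all members, called or extreme genes of the other vessel-type lists, the 3 genes most like each class) were chosen with earlier results of these data known. Dll4, Slc6a2, Flt4, Lyve1, Sema3d, Unc5b, Amigo2, Kdr and Actc1 were named after their values were seen. Intervals on reads cover counting error only. Promoters are from RefSeq (GRCm38.p6).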

Additional observations from a re-analysis of the deposited data

How the results depend on the processing

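No member passed an adjusted p of 0.05 under any of the 19 alternatives. Of 189 fitted log2 fold changes of members, 180 kept their sign, and Ackr1, tested in 18 alternatives since it was below 10 reads in KO replicate 3, ranged from -1.83 to -1.11. The 9 that changed sign were Nr2f2 (-0.041) and Ephb4 (-0.085) with total counts, Nr2f2 (-0.20) and Ephb4 (-0.24) scaled to the pan-endothelial genes, Ephb4 without WT replicate 1 (-0.09) or KO replicate 1 (-0.12), Efnb2 without WT replicate 3 (0.047) or KO replicate 2 (0.02), and Nr2f2 without WT replicate 3 (-0.035). Leaving out single libraries gave -0.035 to 0.252 for Nr2f2 and -0.12 to 0.161 for Ephb4. The median over all genes was -0.13 with total counts and -0.27 scaled to the pan-endothelial genes. The arterial median was -0.23 and -0.38 under these scalings, and the venous median -0.24 under the second. With each library left out, the arterial median was -0.22 to 0.047, the venous -0.12 to 0.12 and the lymphatic 0.26 to 0.73. Over all genes, calls numbered 16, against 187 with DESeq2, 26 with limma-voom, 211 with the likelihood ratio test, 26 with RLE, 31 with upper-quartile and 123 with total-count scaling, 40 scaled to the pan-endothelial genes, 152 without a filter, and 0 to 791 with each library left out (791 without WT replicate 2, 0 without any KO library, where 986 to 1112 genes had an unadjusted p under 0.05). The replicate block gave 0 calls, with 1776 genes at an unadjusted p under 0.05 in edgeR, and called no member. Deviations of same-numbered libraries correlated at -0.08, 0.22 and 0.01, so the numbers were not taken to pair the libraries. Across numbers, WT replicate 1 correlated with KO replicate 3 at 0.192 and WT replicate 3 with KO replicate 1 at 0.194. The remaining pairs across numbers were below 0, down to -0.185. What these libraries share was not tested, nor was the cause of the differences between settings. Depth limits Ackr1 and Prox1, with 6 to 99 reads per library.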

Other observations

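Of the 5 smooth muscle genes listed, all had a log2 fold change below 0 (median -0.52), beside 45.9% of all genes tested. For Acta2, Tagln and Des the 3 KO libraries were below the 3 WT libraries, as for 9.20% of all genes. Tagln, an actin-binding protein of smooth muscle, had levels of 83.8, 68.9 and 84.9 CPM in the WT libraries against 29.3, 37.8 and 46.5 CPM in the KO libraries, a log2 fold change of -1.06 (adjusted p = 0.140, edgeR). Acta2 was at 35.8 to 43.7 CPM in WT and 22.3 to 30.7 CPM in KO, and its log2 fold change was -0.53. None of the 5 passed the adjusted threshold, and 3 had an unadjusted p under 0.05 with a lower level in KO, beside 4.68% of all genes. Of the 6 pericyte genes, 3 had a log2 fold change above 0 and 3 below 0, with a median of 0.12 and overlapping groups. The difference between the lists was not tested.

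The aerocyte genes Car4, Ednrb, Apln, Tbx2 and Fibin, which mark the capillary ECs that face the air spaces, all had a log2 fold change above 0, between 0.36 and 0.79, with a median of 0.43. The 6 general capillary genes had a median of 0.18. The groups overlapped for each of these 11 genes, and 0 had an unadjusted p under 0.05 in edgeR's test. Of the 4 neuroendocrine genes, only Syp passed the filter on low counts, with a log2 fold change of -0.10. The 4 alveolar type I genes had a median of 0.11 and the 6 macrophage genes of 0.30, with overlapping groups. All 6 B cell genes were higher in every KO library than in any WT library, as were 8.59% of all genes tested. Their median was 2.45 and 2 passed the adjusted threshold, beside 0.109% of all genes.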
